A study of Homo sapiens with 6 samples.

Results

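The 10 genes described here encode cargo receptors of selective autophagy, the proteins that choose what an autophagosome takes up. They were taken by symbol from a table of 19727 genes, and all 10 (SQSTM1, NBR1, OPTN, CALCOCO2, TAX1BP1, TOLLIP, BNIP3, BNIP3L, FUNDC1 and NCOA4) were present. The comparison asks if SQSTM1, the best known of them, moved alone when the circular RNA circCSPP1 was overexpressed. RNA was sequenced from DU145, an established human prostate cancer cell line, in 3 libraries labelled NC with a normal genotype (lentivirus-NC, the control vector) and 3 libraries from cells overexpressing circCSPP1 (lentivirus-circCSPP1). Both groups are stable lines made with lentivirus, so the control cells carry a vector too, and the labels name no starvation, drug or time point.

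A selective autophagy receptor holds its cargo with one end and proteins of the ATG8 family (LC3 and GABARAP), which coat the growing membrane, with the other. SQSTM1 (p62), NBR1, OPTN, CALCOCO2 (NDP52), TAX1BP1 and TOLLIP bind ubiquitin on aggregates, damaged mitochondria or bacteria. BNIP3, BNIP3L (NIX) and FUNDC1 sit in the outer mitochondrial membrane and mark the organelle without needing ubiquitin, while NCOA4 carries ferritin to the lysosome. Several receptors are degraded together with their cargo, so an mRNA level is not a measure of autophagic flux.

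Of the 10 receptors, SQSTM1 rose and BNIP3 fell with circCSPP1, and the other 8 did not pass the test. SQSTM1 mRNA went from 541 ± 15.8 FPKM (SD, n = 3) to 1643 ± 50.5 FPKM (SD, n = 3), a 3.03-fold higher mean. BNIP3 mRNA went from 65.5 ± 8.43 FPKM to 44.0 ± 5.68 FPKM (SD, n = 3 each). FPKM is a fragment count scaled by the length of the transcript and by the mapped fragments of the library, so levels can be compared between genes of different length. Fold changes below are differences of log2(FPKM + 1), lentivirus-circCSPP1 minus lentivirus-NC, from limma, with 95% confidence intervals and p-values adjusted over the 12322 genes that averaged 1 FPKM or more, and a gene was called when its adjusted p was under 0.05. All 10 receptors passed that filter.

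Across all tested genes 11.4% were called, 4.69% as higher and 6.66% as lower, and 36.4% had values that did not overlap between the groups. Among the receptors, 1 of 10 was higher, 1 of 10 was lower and 3 of 10 (SQSTM1, NBR1 and BNIP3) did not overlap, counts that do not set the group apart from other genes. Their median log2 fold change was 0.0052, beside -0.028 over all tested genes.

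**Figure D1:**
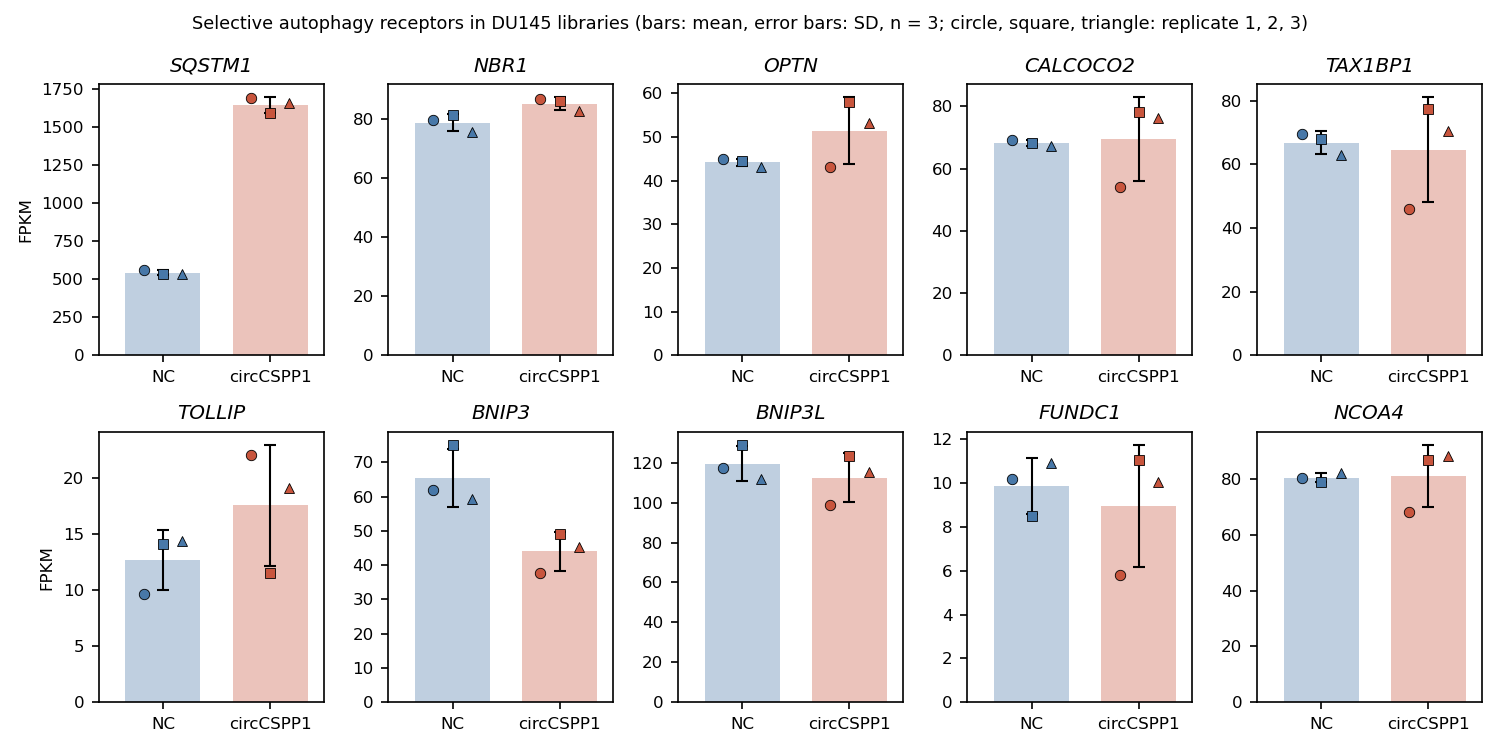
FPKM of the 10 receptors in each library (one panel per gene, each with its own axis from 0; bars are means and error bars SD, n = 3; circle, square and triangle are replicates 1, 2 and 3). SQSTM1 is above and BNIP3 below the control range in all 3 lentivirus-circCSPP1 libraries, while in OPTN, CALCOCO2, TAX1BP1, FUNDC1 and NCOA4 the first lentivirus-circCSPP1 replicate lies apart from the other two.

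Before the values, the state of the libraries matters for several receptors. From the step size of low values the libraries were estimated to hold 28900000 to 36600000 fragments. With the length of the longest coding transcript, that gave estimates of 45923 to 164481 fragments behind SQSTM1 but only 225 to 478 behind FUNDC1. The lengths used for the deposited FPKM are not known. The CSPP1 gene, whose sequence circCSPP1 shares, was at 9.54 ± 0.493 FPKM in the controls and 19.5 ± 4.44 FPKM with circCSPP1 (SD, n = 3 each; log2 fold change 0.94, adjusted p = 0.016). A gene-level FPKM of poly(A) RNA cannot tell the circle from the linear transcript. By qRT-PCR and western blot, the study reported that its vectors altered circCSPP1 but not CSPP1 mRNA or protein in DU145. All 5 epithelial markers were detected, and 4 of them (KRT8, KRT18, CDH1 and EPCAM) fell while KRT7 rose, with summed levels of 3346 to 3492 FPKM in the controls and 2712 to 3608 FPKM with circCSPP1. KLK3 and TMPRSS2 were at or near 0, blood and endothelial markers summed to at most 0.20 FPKM, and the fibroblast markers, carried by COL1A1, summed to 2.64 to 4.14 FPKM in the controls and 1.01 to 1.38 FPKM with circCSPP1. The part of these marker changes in the receptor values was not tested.

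One library stood apart. Against the mean of the other 2 lentivirus-circCSPP1 replicates, replicate 1 was lower by a median log2 difference of -0.54 in genes whose transcript has under 40% GC and higher by 0.34 in genes over 60% GC. The same comparison in lentivirus-NC ran only from -0.023 to 0.013. Of the receptors, 7 (OPTN, CALCOCO2, TAX1BP1, BNIP3, BNIP3L, FUNDC1 and NCOA4) were lower in replicate 1 than in both other replicates, and in these same 7 it was also below every control library. Over the 10 receptors the departure of replicate 1 rose with transcript GC content (Pearson's r = 0.66, Spearman's rho = 0.53, a description over genes measured in the same libraries). Each receptor is therefore given with and without that library where its call or direction changes.

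**Figure D2:**
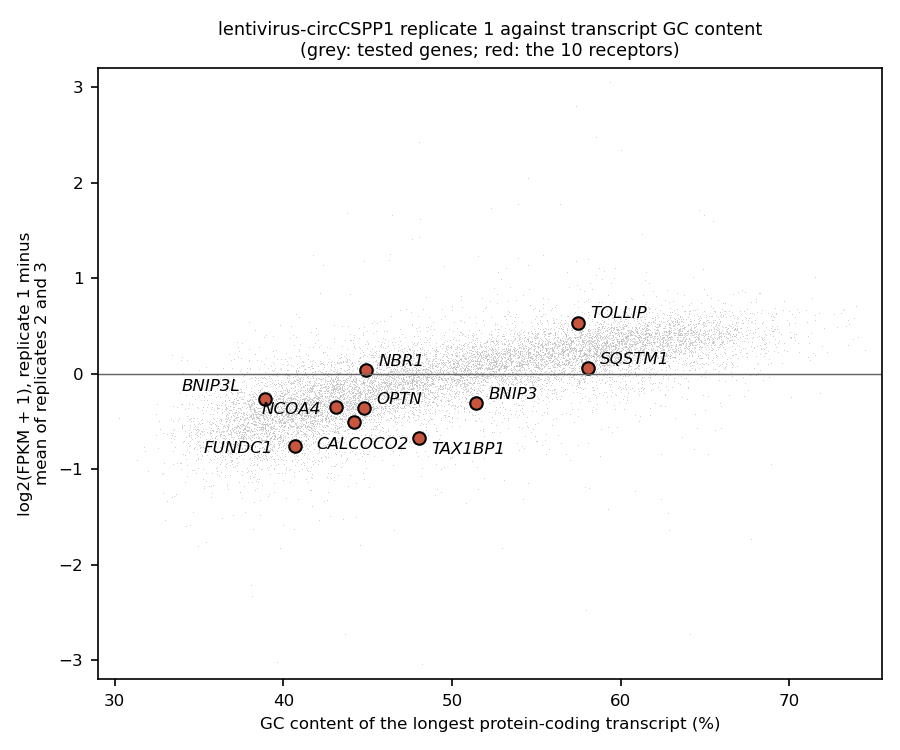
Departure of lentivirus-circCSPP1 replicate 1 from the mean of replicates 2 and 3, as a difference of log2(FPKM + 1), against the GC content of the transcript in percent (grey points are tested genes, red points the 10 receptors). The cloud rises from left to right; FUNDC1 and TAX1BP1 lie lowest of the receptors at -0.76 and -0.67, and SQSTM1, at 58.0% GC, lies close to 0.

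SQSTM1 (ENSG00000161011, GRCh38 chr5:179806398-179838078, plus strand) binds ubiquitin and LC3 and forms condensates around ubiquitinated proteins. Its level was 559.57, 532.16 and 532.13 FPKM in the 3 control libraries and 1686.76, 1587.44 and 1653.39 FPKM in the 3 lentivirus-circCSPP1 libraries. The groups were far apart and each was tight, with a coefficient of variation of 2.93% and 3.08%. The log2 fold change was 1.60 (95% confidence interval 1.46 to 1.74, SE 0.061, adjusted p = 8.5e-05), which placed SQSTM1 at the 99.9th percentile of all tested genes. By level it moved from rank 110 to 118 among all genes in the control libraries to rank 27 or 28 with circCSPP1. When any 1 of the 6 libraries was left out the log2 fold change stayed between 1.58 and 1.62.

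SQSTM1 shares bases with 2 genes on the other strand, and whether reads were counted by strand is not given in the sources used here. MRNIP shares 1582 exon bases with it and went from 20.4 ± 2.66 to 16.9 ± 0.656 FPKM (SD, n = 3 each; adjusted p = 0.22). MGAT4B shares 105 exon bases and rose from 162 ± 5.43 to 236 ± 30.3 FPKM (SD, n = 3 each; log2 fold change 0.53, adjusted p = 0.020). No other gene matched the SQSTM1 transcript over 100 bases or more at 95% identity.

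RefSeq gives 3 transcription starts for SQSTM1. SQSTM1 is a known target of NRF2, which binds antioxidant response elements. A loose form of the core of these elements, TGANNNNGC with N as any base, was searched for on both strands. The search covered the 250 bases before each start. The pattern was found 2 times before the most downstream start, which lies inside the gene span given above, and not before the other 2 starts. The first match, 190 bases before that start, lies outside the exons of SQSTM1 in GENCODE 29. The second, 139 bases before the same start, overlaps an exon of the gene. Both are shown because SQSTM1 was the receptor that rose, on the plus strand with the matches in capitals (GRCh38.p14, chr5:179820705-179820734 and chr5:179820756-179820785). The base after TGA is G in the first match and A in the second.

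SQSTM1, 190 bases before the start: gggtcagcaaTGAGGGGGCcgggagacctg
SQSTM1, 139 bases before the start: gggagagtagTGAAGGGGCctctgcagggc

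A match of this loose pattern is common, since 35.16% of 35116 promoter windows of this length hold one, CALCOCO2 (2 matches) and TOLLIP (1 match) among them. A match describes the letters and shows neither an antioxidant response element nor a bound site.

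NBR1 (chr17:43170481-43211689) is built like SQSTM1 and works beside it in the same condensates. It was at 79.46, 81.26 and 75.43 FPKM in the control libraries and at 86.69, 85.95 and 82.68 FPKM with circCSPP1. Its groups did not overlap, but the shift was small and did not pass the test (log2 fold change 0.11, 95% confidence interval -0.06 to 0.29, adjusted p = 0.37). NBR1 was, with SQSTM1, one of the 2 receptors that varied least in lentivirus-circCSPP1, with a coefficient of variation of 2.51%. A non-coding gene on the other strand shares 463 of its exon bases. Coding genes on the other strand also share exon bases with OPTN (147, CCDC3), TAX1BP1 (415, JAZF1) and BNIP3L (330, PNMA2).

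OPTN (chr10:13099449-13138308) is a ubiquitin receptor for mitochondria and bacteria that the kinase TBK1 phosphorylates. It was at 44.9, 44.42 and 43.19 FPKM in the control libraries and at 43.11, 58.07 and 53.2 FPKM with circCSPP1. Replicates 2 and 3 were above every control library and replicate 1 was just below them. With all libraries OPTN did not pass the test (log2 fold change 0.21, 95% confidence interval -0.07 to 0.48, adjusted p = 0.30). Without lentivirus-circCSPP1 replicate 1 it was called higher (log2 fold change 0.33, adjusted p = 0.015), and after a correction for GC content and length it was called too (0.24, adjusted p = 0.021). These were the 2 of 14 alternatives in which OPTN passed, and without lentivirus-circCSPP1 replicate 2 its value was 0.11 (adjusted p = 0.53). The 2 alternatives that called OPTN also called more of all tested genes. Without lentivirus-circCSPP1 replicate 1, 1624 genes were higher and 1888 lower, and after the correction 1772 and 1731. With all libraries and no correction 578 were higher and 821 lower.

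CALCOCO2 (chr17:48830988-48866522) recruits the autophagy machinery to bacteria and mitochondria. It was at 69.09, 68.35 and 67.14 FPKM in the control libraries and at 54.01, 78.26 and 76.12 FPKM with circCSPP1. The controls were tight, with a coefficient of variation of 1.44%, and replicates 2 and 3 lay above them and replicate 1 well below. The log2 fold change was 0.0073 (95% confidence interval -0.33 to 0.34, adjusted p = 0.98) with all libraries and 0.18 (adjusted p = 0.046) without lentivirus-circCSPP1 replicate 1. Leaving out that library also raised the calls over all tested genes, to 1624 higher and 1888 lower from 578 and 821.

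TAX1BP1 (chr7:27739331-27844564), a paralog of CALCOCO2 that also helps to clear aggregates, showed the same shape. It was at 69.67, 67.91 and 62.83 FPKM in the control libraries and at 46, 77.3 and 70.44 FPKM with circCSPP1. The log2 fold change was -0.081 (95% confidence interval -0.51 to 0.35, adjusted p = 0.82) and turned to 0.14 (adjusted p = 0.18) without lentivirus-circCSPP1 replicate 1. Neither value passed the test.

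TOLLIP (chr11:1274371-1309654, minus strand) links ubiquitinated aggregates and endosomal cargo to LC3. It was at 9.66, 14.11 and 14.37 FPKM in the control libraries and at 22.03, 11.54 and 19.16 FPKM with circCSPP1. The groups overlapped and both were wide, at 20.8% and 30.8% by coefficient of variation. The log2 fold change was 0.41 (95% confidence interval -0.17 to 0.99, adjusted p = 0.32), which did not pass the test. Leaving out 1 library moved it between 0.23 (without lentivirus-circCSPP1 replicate 1) and 0.67 (without lentivirus-circCSPP1 replicate 2), and it passed in none of the 14 alternatives.

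BNIP3 (chr10:131966455-131982013, minus strand) is a mitochondrial receptor well known as a gene induced by hypoxia. It was at 61.95, 75.12 and 59.42 FPKM in the control libraries and at 37.8, 48.97 and 45.19 FPKM with circCSPP1. The highest lentivirus-circCSPP1 value was below the lowest control value, and the mean fell by 32.8%. The log2 fold change was -0.56 (95% confidence interval -0.87 to -0.26, SE 0.13, adjusted p = 0.035), at the 5.28th percentile of all tested genes. Leaving out lentivirus-circCSPP1 replicate 1 gave -0.46 (adjusted p = 0.026). The call was lost when lentivirus-NC replicate 1, 2 or 3 was left out (adjusted p = 0.11, 0.13 and 0.082) or lentivirus-circCSPP1 replicate 3 (adjusted p = 0.10), while the direction stayed the same. A BNIP3 pseudogene, BNIP3P1, matches 32.6% of the BNIP3 transcript at 95% identity or more, and reads from that stretch may be shared between them.

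BNIP3 is a known target of HIF1, which binds the core ACGTG. In the 250 bases before the RefSeq start of BNIP3 the palindrome CACGTG, which holds that core on both strands, occurred once, 134 bases before the start and outside the exons of the gene. It is shown because BNIP3 was the receptor that fell, with the palindrome in capitals (GRCh38.p14, chr10:131982040-131982069, minus strand).

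BNIP3, 134 bases before the start: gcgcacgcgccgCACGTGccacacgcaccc

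Over all promoter windows 18.51% hold ACGTG and 6.345% hold CACGTG on either strand. CALCOCO2 was the other receptor with ACGTG, among the 9 receptors whose windows were searched.

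BNIP3L, the closest relative of BNIP3 and the receptor that clears mitochondria from maturing red cells, was at 117.37, 128.96 and 111.77 FPKM in the control libraries and at 98.84, 123.15 and 115.41 FPKM with circCSPP1. Its groups overlapped (log2 fold change -0.089, 95% confidence interval -0.33 to 0.16, adjusted p = 0.64), and without lentivirus-circCSPP1 replicate 1 the value was 0.00073. FUNDC1 (chrX:44523639-44543001, minus strand), a mitochondrial receptor controlled by phosphorylation, was at 10.17, 8.46 and 10.91 FPKM in the control libraries and at 5.79, 11.04 and 10.01 FPKM with circCSPP1. Only replicate 1 of lentivirus-circCSPP1 fell outside the control range downwards, and the log2 fold change of -0.16 (95% confidence interval -0.68 to 0.36, adjusted p = 0.69) became 0.093 without it.

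NCOA4 (chr10:46005088-46030714, minus strand), the ferritin receptor, was at 80.1, 78.84 and 81.97 FPKM in the control libraries and at 68.13, 86.74 and 88.14 FPKM with circCSPP1. Its log2 fold change was 0.0031 (95% confidence interval -0.26 to 0.26, adjusted p = 0.99). The mRNAs of its cargo did change. FTH1, the ferritin heavy chain, rose from 1048 ± 44.5 to 1572 ± 170 FPKM (SD, n = 3 each; log2 fold change 0.58, adjusted p = 0.010), and FTL, the light chain, rose from 1150 ± 31.9 to 1580 ± 71.6 FPKM (SD, n = 3 each; log2 fold change 0.46, adjusted p = 0.0069). Ferritin genes have many processed pseudogenes, so the split of their reads is uncertain.

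**Figure D3:**
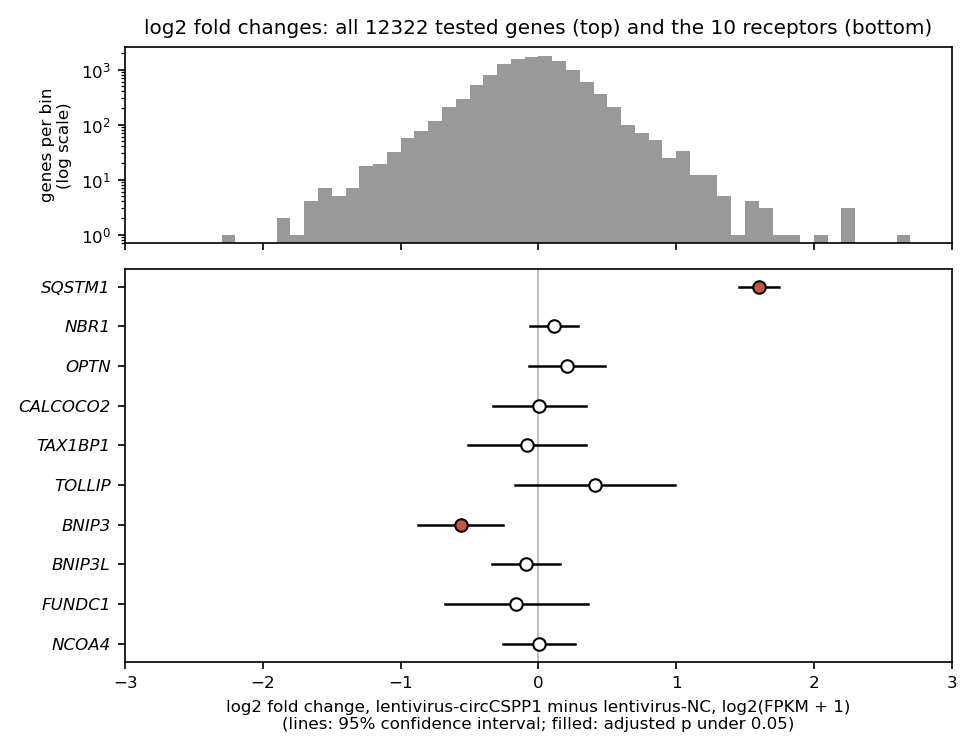
Top, histogram of the log2 fold changes of all 12322 tested genes (count on a log scale); bottom, log2 fold change of each receptor with its 95% confidence interval (filled when the adjusted p was under 0.05). The interval of SQSTM1, 1.46 to 1.74, lies above the upper limit of each of the other 9, of which TOLLIP reached highest at 0.99.

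To compare SQSTM1 with the others directly, log2(FPKM + 1) of each receptor was subtracted from that of SQSTM1 within every library. In all 9 comparisons the 3 lentivirus-circCSPP1 libraries were above the 3 controls, with a difference between group means from 1.19 (TOLLIP) to 2.16 (BNIP3). All 9 use the same SQSTM1 values, so they are not independent of each other. Each exact two-sided permutation test gave p = 0.1, the smallest value that 3 against 3 libraries allow, so none of the 9 could pass 0.05 and no adjustment was made. The difference was 1.49 against NBR1, the receptor most like SQSTM1 in build.

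**Figure D4:**
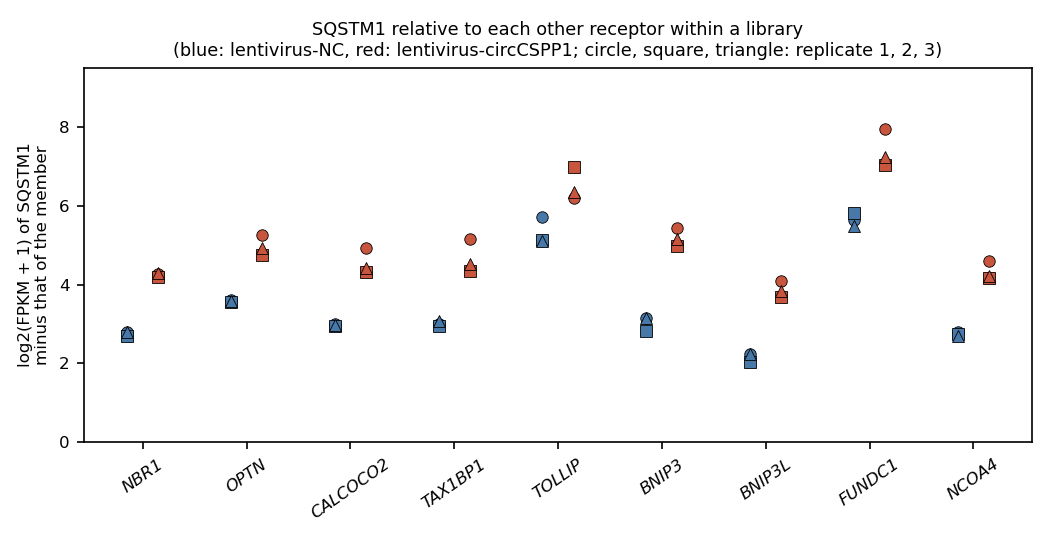
Difference of log2(FPKM + 1) between SQSTM1 and each other receptor within a library (blue, lentivirus-NC; red, lentivirus-circCSPP1; one point per library). The red points are above the blue points for all 9 receptors, by 1.19 on average for TOLLIP and by 2.16 for BNIP3.

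The order of the receptors by level was little altered. In lentivirus-NC it ran SQSTM1, BNIP3L, NCOA4, NBR1, CALCOCO2, TAX1BP1, BNIP3, OPTN, TOLLIP and FUNDC1, and NCOA4 with NBR1, CALCOCO2 with TAX1BP1, TAX1BP1 with BNIP3, and TOLLIP with FUNDC1 were neighbours whose values overlapped. In lentivirus-circCSPP1 the mean of NBR1 moved above that of NCOA4 and the mean of OPTN above that of BNIP3. The values overlapped in both pairs, and NBR1 was above NCOA4 only in replicate 1. Within a library, OPTN was above BNIP3 in every lentivirus-circCSPP1 library and below it in every control library. SQSTM1 alone made up 48.4% to 50.8% of the summed FPKM of the 10 receptors in the control libraries and 73.2% to 78.5% in the lentivirus-circCSPP1 libraries. The other 9 receptors together summed to 542.37, 567.43 and 527.03 FPKM in the controls and to 462.4, 581.02 and 560.35 FPKM with circCSPP1, where replicate 1 was again the lowest.

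The genes whose profile over the 6 libraries lay nearest to SQSTM1 were found by the root mean square distance between log2(FPKM + 1) values centred on the control mean. The nearest was PPP1R15A (distance 0.090), which encodes the stress-induced phosphatase subunit GADD34, at 29.96 ± 2.59 FPKM in the controls and 96.8 ± 5.20 FPKM with circCSPP1 (SD, n = 3 each). G0S2, an inhibitor of lipolysis, OSGIN1, DDIT3, which encodes the stress factor CHOP, and CYP1B1 followed at distances of 0.14 to 0.17. The profiles nearest to BNIP3 were those of SAMD12, F2R, CDK19, PDK3 and ATF7IP, at 0.043 to 0.068, of which F2R and PDK3 were themselves called lower (adjusted p = 0.030 and 0.031).

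The study also asked if circCSPP1 acts through the microRNA miR-520h. The mature sequence is shown because its sites in mRNAs are read by its seed, bases 2 to 8, in capitals (RefSeq, GRCh38.p14).

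hsa-miR-520h: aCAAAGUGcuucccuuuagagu

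The 3′ UTRs of 5 receptors held the match to bases 2 to 7 (ACTTTG): 2 matches each in TAX1BP1 and BNIP3 and 1 each in OPTN, BNIP3L and NCOA4. SQSTM1, with 1485 bases of 3′ UTR, held none, and neither did NBR1, CALCOCO2, TOLLIP and FUNDC1. Of 12212 tested genes with a 3′ UTR, 48.18% held this match. The longer match to bases 2 to 8 (CACTTTG) occurred 2 times in BNIP3 and 1 time each in OPTN and BNIP3L, and in no other receptor. The matches in TAX1BP1 and NCOA4 lack the base that pairs with base 8. At TAX1BP1 position 134 and NCOA4 position 1130 the 6 bases are followed by A (ACTTTGA), another form of 7-base match. A 7-base match of either form is common, since 32.87% of the same 12212 genes held one. At TAX1BP1 position 584 only the 6 bases match. These sites are printed with the 6 bases in capitals, and positions in the 3′ UTR are counted from its first base.

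TAX1BP1, position 134: ccaggagctACTTTGagtttggtg
TAX1BP1, position 584: agaaggcatACTTTGctaatttta
NCOA4, position 1130: gctttccagACTTTGaaactatta

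Beyond the 10 receptors, 6 groups of genes that work with them were described by their counts and medians. Over all tested genes 4.69% were called higher, 6.66% were called lower and the median was -0.028. The groups were chosen with earlier results of these data known. The ATG8 proteins, to which the receptors bind, had 1 of 6 tested genes called higher and none lower, with a median log2 fold change of 0.22. That gene was GABARAPL1, which rose from 9.80 ± 2.10 to 17.2 ± 1.77 FPKM (SD, n = 3 each; log2 fold change 0.77, adjusted p = 0.023), a call lost without lentivirus-NC replicate 1 or 2 or lentivirus-circCSPP1 replicate 3. MAP1LC3B, the LC3 protein most used as a marker of autophagosomes, was at 42.5 ± 1.31 FPKM in the controls and 53.0 ± 13.0 FPKM with circCSPP1 (SD, n = 3 each; adjusted p = 0.30).

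Receptors for other organelles, from the endoplasmic reticulum to glycogen, had 0 of 19 higher and 1 of 19 lower, with a median of 0.050. The lower one was RETREG1 (FAM134B), the receptor that sheds sheets of endoplasmic reticulum, at 2.40 ± 0.0231 FPKM in the controls and 1.15 ± 0.455 FPKM with circCSPP1 (SD, n = 3 each; log2 fold change -0.68, adjusted p = 0.034), a call lost without any 1 of the control libraries or lentivirus-circCSPP1 replicate 3. Kinases, ubiquitin ligases and adaptors that act on the receptors, among them TBK1, ULK1, PINK1 and KEAP1, had 0 of 23 tested genes called by limma, with a median of 0.027. At an unadjusted p under 0.05, 4 of them were higher and 2 lower, beside 1507 higher and 1970 lower of all 12322 tested genes. After the correction for GC content and length 4 were called higher and 2 lower, beside 1772 higher and 1731 lower of 12305 genes. Neither count sets the regulators apart from other genes. KEAP1, the adaptor that holds NRF2 for degradation and that SQSTM1 sequesters, lay closest to the threshold and is named for that after its value was seen, at 58.1 ± 9.54 and 94.0 ± 20.2 FPKM (SD, n = 3 each; log2 fold change 0.68, adjusted p = 0.051).

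Of 11 transcription factors known to act on receptor genes, 3 were called higher and 2 lower, with a median log2 fold change of 0.028. NFE2L2, which encodes NRF2, rose from 30.2 ± 11.4 to 63.2 ± 8.77 FPKM (SD, n = 3 each; log2 fold change 1.09, adjusted p = 0.029). TFE3, a lysosomal and autophagy regulator, and ATF4, the effector of the integrated stress response, rose by 0.44 and 0.40 on the log2 scale (adjusted p = 0.028 and 0.011). HIF1A fell from 134 ± 2.08 to 87.1 ± 14.0 FPKM (SD, n = 3 each; log2 fold change -0.62, adjusted p = 0.021), and EPAS1, which encodes the related HIF2 subunit, fell by 0.71 on the log2 scale (adjusted p = 0.0049). None of NFE2L2, TFE3, ATF4 and HIF1A was called when lentivirus-NC replicate 1 or 3 or lentivirus-circCSPP1 replicate 3 was left out, and without lentivirus-NC replicate 2 only NFE2L2 of these 4 was. NFE2L2 also missed without lentivirus-circCSPP1 replicate 2 (adjusted p = 0.065), whereas EPAS1 was called in all 14 alternatives.

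Genes known as NRF2 targets, as SQSTM1 is, had 7 of 12 tested genes called higher and none lower, with a median log2 fold change of 0.56. Leaving out 1 library gave 4 to 9 of them higher, and with all libraries 4.69% of all tested genes were called higher. The largest of the 7 were OSGIN1 (1.41, adjusted p = 0.0015), SRXN1, which repairs peroxiredoxins (0.94, adjusted p = 0.0024), and SLC7A11, the cystine importer (0.87, adjusted p = 0.046). Genes known as HIF1 targets, as BNIP3 and BNIP3L are, moved both ways, with 2 of 15 tested genes called higher, 4 lower and a median of -0.19. The glycolytic genes PFKFB4 and LDHA and the oxygen sensor EGLN3 fell by 0.89, 0.61 and 0.60 on the log2 scale (adjusted p = 0.0053, 0.017 and 0.028), whereas the peptide hormone gene ADM and the glucose transporter gene SLC2A1 rose by 0.99 and 0.46 (adjusted p = 0.0082 and 0.046). Which factor acted on SQSTM1 or BNIP3 was not tested.

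**Figure D5:**
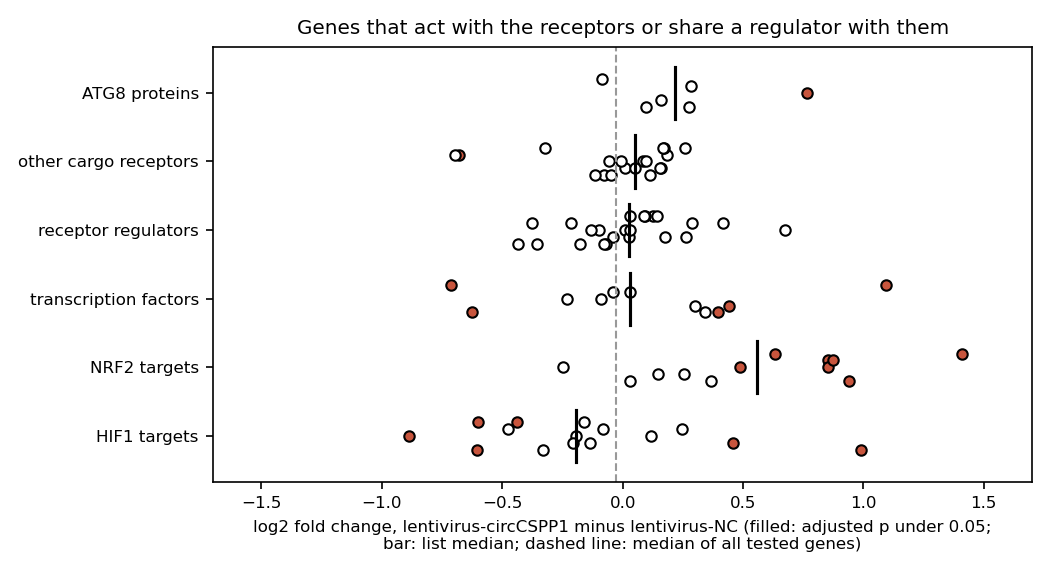
Log2 fold change of each tested gene in 6 groups of genes that act with the receptors or share a regulator with them (filled points, adjusted p under 0.05; bars, group medians; dashed line, median of all tested genes at -0.028). The NRF2 targets lie mostly to the right (median 0.56) and the HIF1 targets mostly to the left (median -0.19), while the receptor regulators, at a median of 0.027, hold no filled point.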

How the data were processed

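Poly(A) RNA of 6 DU145 libraries, 3 lentivirus-NC and 3 lentivirus-circCSPP1, was sequenced as paired ends. The authors deposited 1 table of FPKM per gene and library, rounded to 2 decimals, on hg38 per the submitters' processing notes; the aligner, counter, annotation and strand setting are not given in the sources used here. Depth was read from the steps of low FPKM values of single-transcript genes under 800 bases (91.7% to 98.4% of 55 to 67 values per library within 0.15 of a whole step). No source says that replicates were separate cultures, so p-values measure only the spread between these libraries, which may be technical.

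Genes averaging 1 FPKM or more were tested on log2(FPKM + 1) with limma 3.58.1 (R 4.3.3; lmFit, eBayes with trend, two-sided, Benjamini-Hochberg), checked first on simulated data. FPKM are not counts, so no count test was run. Transcript lengths, GC content, 3′ UTRs and gene coordinates came from GENCODE 29, near copies from BLAST 2.17.0, and promoters and the microRNA from RefSeq (GRCh38.p14). The members and gene groups were chosen with earlier results of these data known. Genes named are the 10 receptors, MAP1LC3B, FTH1 and FTL, at most the 3 largest called genes per direction in each group, and the 5 nearest profiles to each called receptor. Outside that rule, CSPP1, the cell type markers, genes overlapping a receptor and examples of the receptor regulators are named, and KEAP1 after its value was seen. In all, 14 alternatives were tried. Replicate numbers were not taken to pair the libraries. One marker gene and some of the microRNA matches are not reported here.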

Additional observations from a re-analysis of the deposited data

How the results depend on the processing

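SQSTM1 passed the threshold in 14 of 14 alternatives (log2 fold change 1.58 to 1.63). BNIP3 passed in 9 of 14, with log2 fold changes from -0.64 to -0.46. It missed without moderation (adjusted p = 0.11) and in 4 of the 6 fits that left out a library. Leaving out 1 library moved the log2 fold change of CALCOCO2 from -0.087 to 0.18, with values of -0.0038, -0.087 and -0.067 below 0 (without lentivirus-NC replicate 3 and lentivirus-circCSPP1 replicates 2 and 3), that of NCOA4 from -0.062 to 0.12 (-0.0099, -0.050 and -0.062 without lentivirus-NC replicate 2 and lentivirus-circCSPP1 replicates 2 and 3), that of TAX1BP1 from -0.23 to 0.14, of BNIP3L from -0.16 to 0.00073 and of FUNDC1 from -0.32 to 0.093; the highest value of each of these last 3 came without lentivirus-circCSPP1 replicate 1. Leaving out a library gave 1 to 3 receptors higher and 0 to 1 lower. It gave 0 to 3 ATG8 genes higher, 0 to 2 other cargo receptors higher and 0 to 3 lower, 0 to 3 receptor regulators higher and 0 to 3 lower, 0 to 4 transcription factors higher and 1 to 2 lower, 4 to 9 NRF2 targets higher and 0 to 1 lower, and 1 to 2 HIF1 targets higher and 1 to 6 lower. Over all tested genes it gave 146 to 1624 higher and 154 to 1888 lower, both highest without lentivirus-circCSPP1 replicate 1; the cause was not tested.

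With the GC and length correction, 2 receptors, 1 other cargo receptor, 4 receptor regulators, 5 transcription factors and 1772 genes in all were higher, and 2 receptor regulators, 1 NRF2 target and 1731 genes in all were lower; 50.6% of calls were then higher, against 41.3%. Without moderation, 0 receptors, 0 other cargo receptors, 1 transcription factor, 2 HIF1 targets and 453 genes in all were lower, and 0 ATG8 genes, 4 NRF2 targets, 1 HIF1 target and 381 genes in all were higher. With a minimum mean of 5 FPKM, 0 other cargo receptors and 541 genes in all were lower and 1 HIF1 target was higher. With median-ratio scaling or no filter 1 HIF1 target was higher, and with TPM rescaling 1 receptor regulator. Deviations from the group mean were correlated between each control and each lentivirus-circCSPP1 library. Same-numbered libraries gave 0.073, 0.0065 and 0.057, and the other pairs ran from -0.067 to 0.036. All were near 0, so the numbers were not taken to pair the libraries. A replicate block gave 1 receptor regulator, 1 HIF1 target and 364 genes in all higher and 559 lower, and changed no receptor's call. The cause of these changes was not tested. FUNDC1 and TOLLIP rested on the fewest fragments by the estimates above.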
